A study of Saccharomyces cerevisiae with 24 samples.

Results

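Yeast carrying the prp22-1 allele were compared with yeast carrying the prp17-1 allele after a shift to 37C. The comparison rests on 10 of the 24 arrays of the series, chosen by their labels. They are the 5 prp22-1 arrays and the 5 prp17-1 arrays taken 5, 15, 30, 60 and 120 min after the shift, paired by time. Each Saccharomyces cerevisiae strain also had 1 array at 23C before the shift (0 min), and those 2 arrays are used for description and for a test of the change from 23C to 37C. On every array the Cy5 channel held total RNA of the strain and the Cy3 channel held yeast genomic DNA, so that a value is a log2 ratio of RNA to DNA. The labels give no genotype beyond the prp alleles, and each strain is a single time course, and effects of the alleles, the cultures and the genetic backgrounds cannot be told apart. The 5 arrays of the prp17 null strain at 37C are cited beside some genes, and no SS330 array was used.

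Splicing removes an intron in a pair of catalytic steps. PRP17, now listed as CDC40, encodes a spliceosome protein that acts in the step that joins the exons. PRP22 encodes an ATP-dependent RNA helicase that releases the joined mRNA from the spliceosome after that step. In budding yeast introns are concentrated in the genes of ribosomal proteins, and a smaller number lie in genes of the cytoskeleton, the secretory pathway, respiration and RNA metabolism.

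The 10 arrays held a value for between 77.3% and 98.4% of the 6350 probes. The lowest share belonged to the prp22-1 array at 15 min, and the other 9 arrays had at least 93.8%. That array also had the widest spread of values (SD 0.906 over probes). Each array was centred on its median, and all values below are centred log2 ratios. The zero of a probe is not known, so values are compared between arrays and not between genes. Messenger RNA of a heat shock gene, HSP26, was higher at 37C than at 23C in both strains, with a difference of 3.81 in prp22-1 and 5.24 in prp17-1 over the times both strains had a value. CDC40 averaged -1.48 in the prp17 null arrays against 0.23 in prp17-1, and the direction of the ratio was taken from these. Between the compared strains, CDC40 differed by -0.39 ± 0.13 (SE, limma adjusted p = 0.128) and PRP22 by -0.01 ± 0.14 (SE, limma adjusted p = 0.972), and neither value tests the labels.

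Mating-type marker genes were read strain against strain, and no cell type was taken from their levels, since the zero of each probe is unknown. STE2, the alpha-factor receptor gene, read between 1.61 and 2.23 in prp22-1 at 37C and between 0.40 and 1.90 in prp17-1. The alpha-cell genes STE3, MF(ALPHA)1 and SAG1 read below -2 on every array of both strains that had a value. Of the other a-cell genes, MFA2 differed by 0.01 (limma adjusted p = 0.987) and STE6 by 0.57 (limma adjusted p = 0.184). MFA1 and AGA2 had too few paired values for the test, and AGA2 read 1.25 in prp22-1 and 2.49 in prp17-1 at 23C. BAR1, an a-cell gene whose secreted protease degrades alpha-factor, separated the strains. In prp22-1 it read 1.96 at 23C, then 3.79, 2.06 and 2.02 at 5, 60 and 120 min, with no value at 15 and 30 min. In prp17-1 it read -0.36 at 23C and between -0.46 and -0.09 at 37C. The prp17 null arrays with a value lay between -0.31 and 0.10. With values at both arrays for only 3 times, BAR1 entered only the fit that accepted 3 times, where the difference was 2.98 ± 0.34 (SE, limma adjusted p = 0.00963). Whether the BAR1 locus differs between the strains is not stated in the labels.

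At 37C, 235 of 5599 tested probes differed between the strains (limma, time as a block, Benjamini-Hochberg adjusted p under 0.05), which is 4.2% of those tested. In RNA from whole cultures, fewer cells of a kind and less RNA per cell cannot be told apart. Of these, 156 (2.79%) were higher and 79 (1.41%) lower in prp22-1. The largest excesses in prp22-1 were in ribosomal protein genes RPL3, RPL4A and RPL4B. Some genes of cell separation were also higher. Some respiratory chain genes, URA3 and several amino acid synthesis genes were lower. Genes with introns divided, with some lower in prp22-1 and others lower in prp17-1. Sizes ran from 0.48 to 2.21, and 54 probes passed 1, of which 43 were higher and 11 lower in prp22-1. The sign was the same at every paired time for 234 of the 235 called probes and for 23.9% of all tested probes. The p-values measure the spread between time points of 1 course per strain, which are not separate cultures. Leaving out 1 time moved the count by more than 1.5 times in 4 of 5 cases, to 116 without 5 min, 60 without 30 min, 70 without 60 min and 45 without 120 min. It was 231 without 15 min, of which 173 were among the 235. Without time as a block it was 139.

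**Figure D1:**
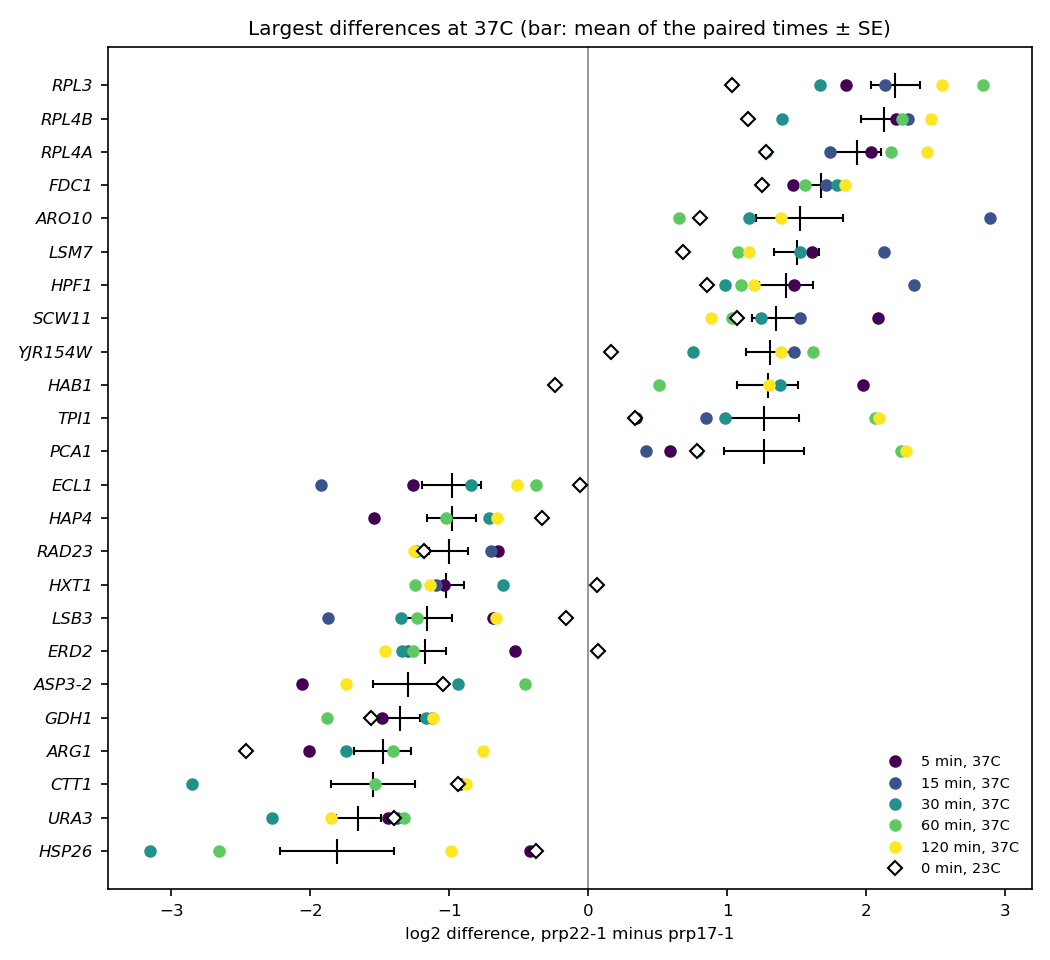
Log2 difference (prp22-1 minus prp17-1, horizontal axis) for the 12 genes highest and the 12 genes lowest in prp22-1 among those called. Dots are the paired times at 37C coloured by time, the bar is their mean with its standard error, and the open diamond is the single pair at 23C. LSB3 is drawn from the probe with the larger difference. The diamonds of URA3, GDH1 and RAD23 lie with their dots, while those of ERD2, HXT1 and LSB3 lie near 0.

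Many of the differences were already present before the shift. At 23C, 192 of the 228 called probes with both values (84.2%) had the sign they had at 37C, against 65.9% of all 5381 tested probes with both values. Along the 37C sign the called probes had a median difference of 0.39 at 23C, and their median size at 37C was 0.79. The change from 23C to 37C was itself compared between strains, and no probe of 5381 passed (0%, limma, smallest adjusted p = 1.00). At an unadjusted p under 0.05 there were 120. This comparison rests on 1 array per strain at 23C. The smallest p-values among named genes were those of YRO2 (-2.16), CYB5 (1.69), RPL22A (1.18) and MCR1 (1.05). YRO2, which encodes a membrane protein induced by stress, read 1.24 in prp22-1 and -0.57 in prp17-1 at 23C, and between 2.04 and 2.75 against between 2.10 and 3.27 at 37C. The difference at 60 and 120 min was also set against that at 5, 15 and 30 min, and again no probe of 5599 passed (0%, limma, smallest adjusted p = 0.139), with 700 at an unadjusted p under 0.05. The 4 named genes with the smallest p-values there, TPO4 (2.23), PCA1 (1.67), YML133C (1.56) and FBA1 (1.502), all had a larger prp22-1 minus prp17-1 difference at the late times.

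RPL3, RPL4A and RPL4B encode proteins of the large ribosomal subunit and have no intron. RPL3 read 0.04, -0.55, -0.65, 0.47 and 0.17 in prp22-1 from 5 to 120 min, and -1.81, -2.69, -2.32, -2.37 and -2.37 in prp17-1. The strains did not overlap at any time. The means were -0.10 ± 0.48 (SD, n = 5) and -2.31 ± 0.32 (SD, n = 5), a difference of 2.21 ± 0.18 (SE, limma adjusted p = 0.000668). At 23C the values were 0.68 and -0.36, so the difference was 1.04 before the shift. RPL4A differed by 1.93 ± 0.17 (SE, limma adjusted p = 0.00102) and by 1.28 at 23C. RPL4B differed by 2.13 ± 0.16 (SE, limma adjusted p = 0.000658) and by 1.15 at 23C. RPL4A and RPL4B are nearly identical copies, and their probes may each read both genes. In the prp17 null strain the means at 37C were -2.61 for RPL3, -2.81 for RPL4A and -2.45 for RPL4B, below the range of prp22-1.

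The other ribosomal protein genes differed by less. Of 40 tested without an intron, 5 were called, 12.5% against 4.2% of all tested probes. That count includes RPL3, RPL4A and RPL4B, the only 3 higher in prp22-1. The other 2, RPS8A (-0.943) and RPS8B (-0.845), were lower in prp22-1. Of 83 tested with an intron, 10 were higher and none lower, 12% of the list. The median difference was 0.28 without an intron and 0.23 with one, against 0.02 for all tested probes, and both medians kept their sign under every scaling tried. The 10 called intron genes had a median difference of 0.73. The strains did not overlap in 4 of them, against 99 of all 156 probes called higher and 7.91% of all tested probes. RPL33A, a large subunit gene with an intron, had one of the larger differences among these 10. It read -0.31, 0.10, 0.01, -0.25 and -0.37 in prp22-1 and -1.13, -1.36, -0.68, -0.84 and -1.27 in prp17-1. The ranges did not overlap, although at 23C prp22-1 was the lower strain (-0.32 against -0.12). The difference at 37C was 0.89 ± 0.15 (SE, limma adjusted p = 0.0149), and its copy RPL33B differed by 0.97 and the small subunit gene RPS9A by 0.98. At 23C the 10 called intron genes had a median difference of -0.11, with values between -0.20 and 0.24. From 23C to 37C their median change was -0.20 in prp22-1 and -1.05 in prp17-1. These 10 were picked by their difference at 37C, which enters that change. Over all 83 tested the median change was -1.14 in prp22-1 and -1.35 in prp17-1. No gene of this list was called when the 30 min or the 120 min pair was left out, and its median difference at 15 min was 0.75 against 0.02 to 0.29 at the other times.

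**Figure D2:**
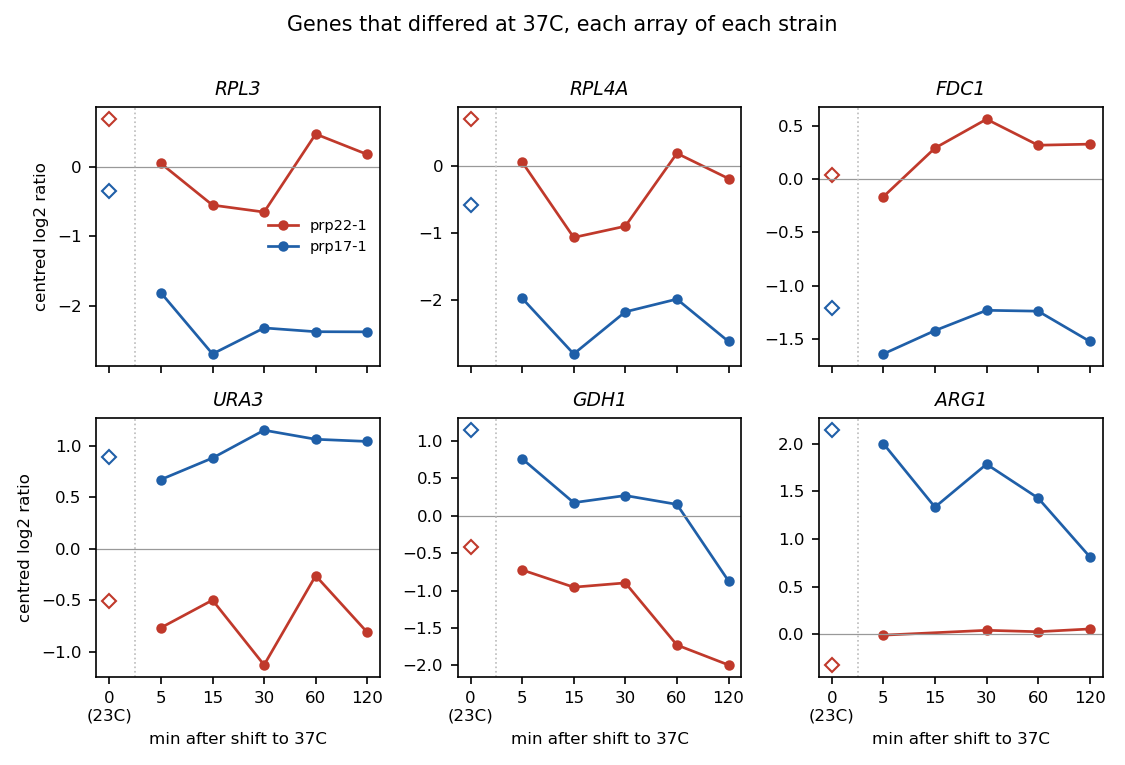
Centred log2 ratio (vertical axis) of 6 genes on each array against time, with prp22-1 in red and prp17-1 in blue. The diamonds are the arrays at 23C and each point is 1 array. Where no value was given there is no point, and the line joins the neighbouring points. RPL3, RPL4A and FDC1 are higher in prp22-1 at all times, and URA3, GDH1 and ARG1 are higher in prp17-1.

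Intron-containing genes outside the ribosome went both ways. Of 100 tested probes of this list, 12 probes of 11 genes were lower and 5 genes were higher in prp22-1, 17% of the list against 4.2% of all tested probes. The median was -0.16 (-0.15 without centring and -0.19 under quantile normalization). ERD2, whose product is the receptor that returns proteins to the endoplasmic reticulum, read -0.60, -1.25, -1.28, -1.17 and -1.34 in prp22-1. In prp17-1 it read -0.07, 0.05, 0.06, 0.09 and 0.12. At 23C both strains were near 0, at -0.00 and -0.07. The difference at 37C was -1.18 ± 0.15 (SE, limma adjusted p = 0.00781), and the prp17 null mean of 0.15 lay with prp17-1. LSB3, an actin patch gene, had a similar course in both of its probes, with differences of -1.16 and -0.98 at 37C against -0.16 and -0.02 at 23C. Its prp22-1 values were between -1.497 and -0.15 and its prp17-1 values between 0.24 and 0.53. EFB1, an elongation factor gene, differed by -0.83 at 37C (limma adjusted p = 0.0149) and by 0.06 at 23C, with prp22-1 at -1.66 and prp17-1 at -0.50 at 30 min.

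ACT1, the actin gene, was low in both strains and lower in prp22-1. It read -0.44, -1.78, -1.95, -1.58 and -1.77 there and -0.24, -0.51, -0.74, -0.92 and -0.85 in prp17-1. The strains overlapped only through the 5 min array of prp22-1. The difference was -0.85 ± 0.17 (SE, limma adjusted p = 0.0277) and 0.18 at 23C. ARP2, a subunit of the actin-nucleating Arp2/3 complex, differed by -0.67, and by -0.59 already at 23C. Of the secretory genes, SEC17, which acts in membrane fusion, differed by -0.84, and the coatomer gene SEC27 by -0.73. CPT1 of phospholipid synthesis (-0.96) and HNT1 (-0.75) completed the group with the respiratory genes COX4 (-0.90) and QCR10 (-0.87). Of the 11 called lower probes with values at 23C, 8 were lower there too, 4 of them by at least 0.30, and the median difference was -0.25. Over the 12 probes the median change from 23C was -0.75 in prp22-1 and -0.29 in prp17-1.

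The 5 intron-containing genes higher in prp22-1 were LSM7, DBP2, NOG2, PRE3 and GCR1. LSM7 encodes a subunit of the Lsm rings, which act in splicing with U6 RNA and in mRNA decay. It read 0.58, 0.93, 0.43, 0.07 and -0.06 in prp22-1 and between -1.22 and -1.002 in prp17-1, with no overlap. The difference was 1.499 ± 0.163 (SE, limma adjusted p = 0.0036), against 0.68 at 23C, and the prp17 null mean was -1.98 over 3 arrays. DBP2, an RNA helicase gene, differed by 1.04, NOG2, a GTPase gene of large subunit assembly, by 0.91, and PRE3, a proteasome core subunit gene, by 0.89. PRE3 in prp22-1 was 0.42 and 0.47 at 5 and 15 min and between -0.92 and -0.43 later, so that at 30 min the difference was -0.12. GCR1, a transcriptional activator of glycolytic genes, differed by 0.88 ± 0.12 (SE, limma adjusted p = 0.00781), with prp22-1 between 0.21 and 0.77 and prp17-1 between -0.53 and -0.24. It had no value at 23C in prp17-1. The 17 called probes of the whole list became 4 without 30 min, 6 without 60 min and 5 without 120 min. Of 75 tested spliceosome genes only LSM7, already counted above, was called. That is 1.33% against 4.2% of all tested probes, and nothing is read from it. The median difference of the 75 was 0.01.

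**Figure D3:**
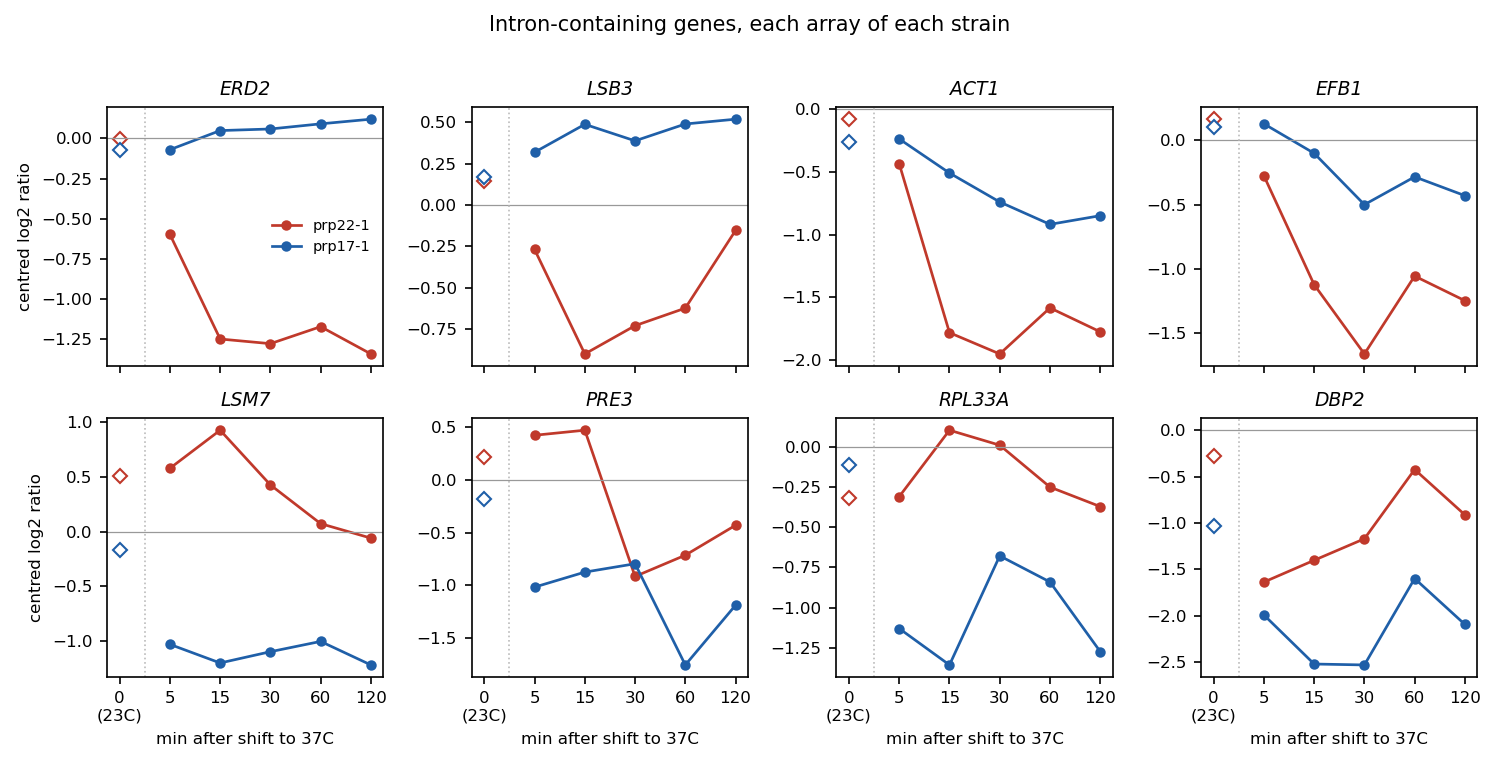
Centred log2 ratio (vertical axis) of 8 intron-containing genes on each array against time, with prp22-1 in red, prp17-1 in blue and the arrays at 23C as diamonds. LSB3 is drawn from the probe with the smaller p-value. The upper row shows genes lower in prp22-1, with both strains close together at 23C. The lower row shows genes lower in prp17-1, where LSM7, DBP2 and, by 0.39, PRE3 were already higher in prp22-1 at 23C.

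Genes of respiration and the citric acid cycle that passed the test were all lower in prp22-1. Of 51 tested, 13 were lower and none higher, 25.5% of the list against 4.2% of all tested probes, and 43 of the 51 had a difference below 0. The median difference was -0.38 at 37C (-0.49 under quantile normalization) and -0.56 at 23C. ATP3, the gamma subunit gene of the mitochondrial ATP synthase, read -0.07, -0.36, -0.31, -0.64 and -0.18 in prp22-1 and 0.72, 0.53, 0.23, 0.65 and 0.72 in prp17-1. The ranges did not overlap, the difference was -0.88 ± 0.13 (SE, limma adjusted p = 0.0122), and at 23C it was -1.31. ATP2, the catalytic beta subunit gene, differed by -0.93 and COX4, a cytochrome oxidase subunit gene, by -0.90. QCR2 of the cytochrome bc1 complex differed by -0.84, and by -1.44 at 23C. ATP5, ATP7, COR1, COX6, COX12, COX13, COX7, FUM1 and QCR10 were lower too, and all 13 had the same sign at 23C. HAP4, which encodes the activating subunit of the complex that turns on respiratory genes, was lower as well. It read between -1 and -0.10 in prp22-1 and between 0.05 and 0.92 in prp17-1, with no overlap. The difference was -0.98 ± 0.18 (SE, limma adjusted p = 0.0241) over the 4 times with both values, and at 23C the difference was -0.33. The 13 calls became 6, 9, 3, 1 and 0 without 5, 15, 30, 60 and 120 min.

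Genes of daughter cell separation that passed the test were all higher in prp22-1. Of 26 tested in the M/G1 list, 5 were higher and none lower, 19.2% against 4.2% of all tested probes, with a list median of 0.42 at 37C and 0.34 at 23C. SCW11, a cell wall glucanase gene, read 0.21, 0.32, 0.16, -0.68 and -1.51 in prp22-1 and -1.87, -1.21, -1.08, -1.72 and -2.40 in prp17-1. Both courses were lowest at 120 min, so the ranges overlap across times, but prp22-1 was higher at each time. The difference was 1.35 ± 0.18 (SE, limma adjusted p = 0.00781) and 1.07 at 23C. EGT2 differed by 1.25, DSE2 by 1.22, the chitinase gene CTS1 by 1.202 and AMN1, a regulator of mitotic exit, by 0.65. At 23C these 5 differed by 0.73 to 1.44. The count was 3 without 30 min and 3 without 120 min.

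**Figure D4:**
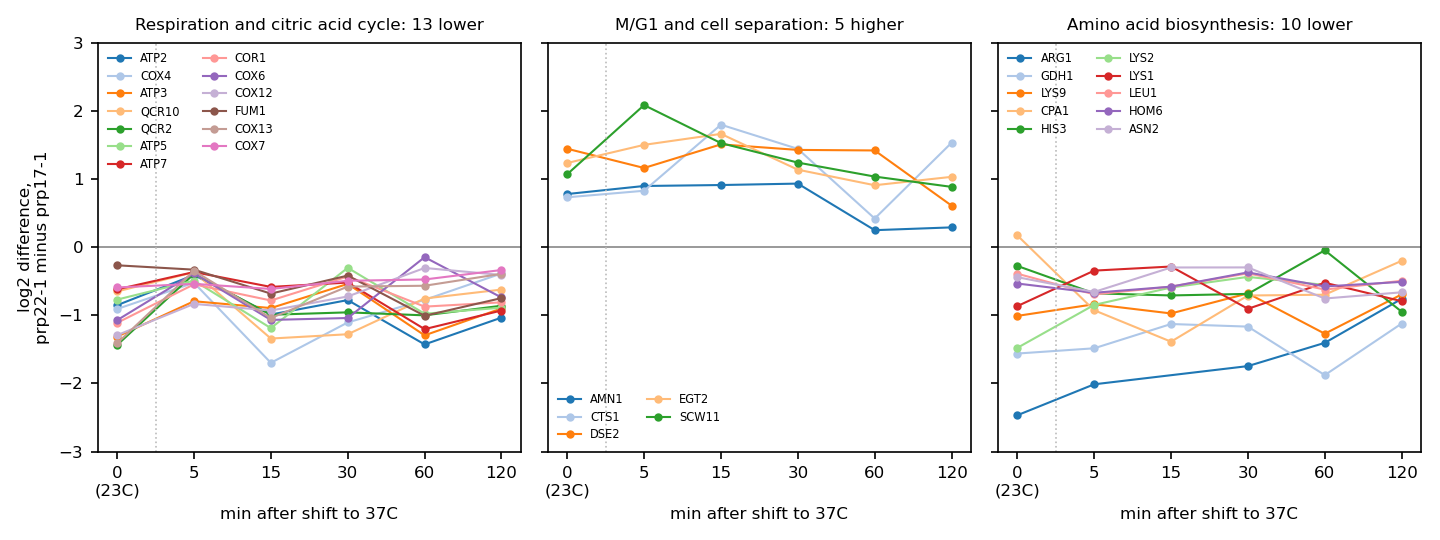
Log2 difference (prp22-1 minus prp17-1, vertical axis) against time for the called genes of 3 lists, with 1 line a gene and the pair at 23C at the left of the dotted line. All 13 respiratory genes lie below 0 and all 5 cell separation genes above 0 at every time, and among the 10 amino acid genes CPA1 is above 0 at 23C.

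Of 63 tested amino acid synthesis genes, 10 were lower and 2 higher in prp22-1, 19.0% against 4.2% of all tested probes. The list median was -0.12. ARG1, argininosuccinate synthetase, read -0.01, 0.04, 0.03 and 0.06 in prp22-1 at 5, 30, 60 and 120 min, and 2.002, 1.79, 1.43 and 0.81 in prp17-1. The difference was -1.48 ± 0.21 (SE, limma adjusted p = 0.0117), and -2.47 at 23C. GDH1, the main glutamate dehydrogenase for ammonium assimilation, differed by -1.36 ± 0.14 (SE, limma adjusted p = 0.0036), and by -1.56 at 23C. In the prp17 null arrays the GDH1 mean of -1.14 (n = 3) lay in the range of prp22-1. The ARG1 mean there of -0.36 (n = 3) lay below both strains. The lysine genes LYS9 (-0.89) and LYS2 (-0.61) and CPA1 of arginine synthesis (-0.78) were lower in prp22-1 as well. The prp17 null means of LYS9 (2.19) and LYS2 (1.47) lay above the means of both strains. HIS3, of histidine synthesis, was low in both strains, between -2.56 and -1.80 in prp22-1 and between -1.76 and -1.52 in prp17-1, while the prp17 null mean was 0.13. Its difference was -0.61 (limma adjusted p = 0.0494). GCN4, the transcription factor that activates these pathways, was higher at the mRNA level (0.71, limma adjusted p = 0.0205), as was the transaminase gene BAT2 (0.63). Of genes often used as strain markers, URA3 stood farthest apart. It read -0.77, -0.50, -1.13, -0.26 and -0.81 in prp22-1 and 0.67, 0.88, 1.15, 1.06 and 1.04 in prp17-1, a difference of -1.65 ± 0.16 (SE, limma adjusted p = 0.0021) and of -1.40 at 23C. At 23C LYS2 stood farther apart, by -1.48. LEU2 (-0.09) and TRP1 (-0.07) did not pass. With 1 time left out, the list had between 2 and 7 lower calls in place of 10, the fewest without 30 min.

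Glycolytic genes with a call were higher in prp22-1, 3 of 26 tested, 11.5% against 4.2% of all tested probes, and the list median was 0.26. PFK1 and PFK2 encode the subunits of phosphofructokinase. PFK1 read between -0.53 and -0.12 in prp22-1 and between -1.88 and -1.03 in prp17-1, a difference of 1.14 ± 0.16 (SE, limma adjusted p = 0.00979) against 0.12 at 23C, and PFK2 differed by 0.82. TPI1, triose phosphate isomerase, differed by 0.34 at 5 min and 2.09 at 120 min, with a mean of 1.27 ± 0.25 (SE, limma adjusted p = 0.0287). The prp17 null means of PFK1 (-0.42) and PFK2 (0.11) lay in the range of prp22-1, and that of TPI1 (-1.82) in the range of prp17-1. HXT1, a low-affinity glucose transporter gene, was lower in prp22-1. It read between -1.41 and -0.87 in prp22-1 and between -0.67 and 0.38 in prp17-1, a difference of -1.03 ± 0.13 (SE, limma adjusted p = 0.00713) against 0.06 at 23C, and the prp17 null mean of -1.70 was below both. HXT6, nearly identical to HXT7, differed by -0.77. The glycolysis count was 1 without 30, 60 or 120 min.

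In the stress lists the called share was below the 4.2% of all tested probes, and nothing is read from it. Of 43 tested heat shock and chaperone genes only HSP26, a small heat shock protein gene, was called, and of 60 general stress genes only CTT1, the cytosolic catalase gene. HSP26 read 4.89, 3.35, 2.27 and 3.83 in prp22-1 at 5, 30, 60 and 120 min and 5.31, 6.51, 4.93 and 4.82 in prp17-1, a difference of -1.81 ± 0.41 (SE, limma adjusted p = 0.0485). CTT1 differed by -1.55 ± 0.30 (SE, limma adjusted p = 0.0321), and by -0.94 at 23C. Neither call held with the trend variance setting (limma adjusted p = 0.689 for HSP26 and 0.201 for CTT1). HSP26 also missed with the robust variance setting (limma adjusted p = 0.0529). Neither gene had a prp22-1 value at 15 min. The list medians were 0.19 and 0.16 at 5 min and -0.49 and -0.48 at 30 min. The iron uptake genes FIT1 (-0.04) and FIT3 (-0.21) did not pass at 37C, though on the single arrays at 23C their differences were -0.92 and -1.12. At a background of 4.2%, lists of this size hold few calls, and nothing is read from their absence. No gene was called among 28 tested of the iron regulon, 36 of the mating pathway, 10 histone genes, 36 G1/S genes, 60 mitochondrial ribosomal protein genes or 48 of RNA export and decay.

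**Figure D5:**
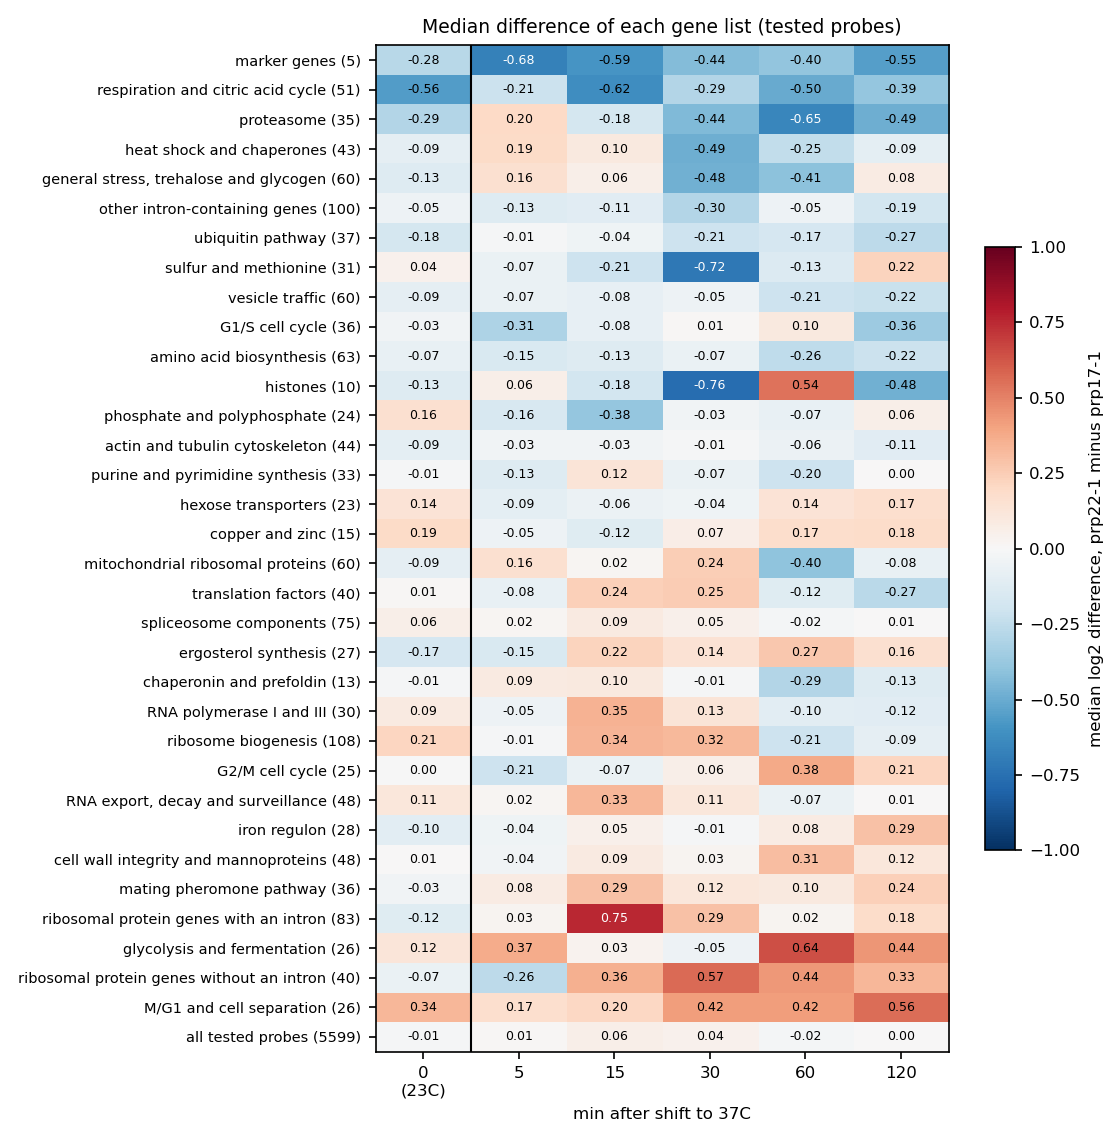
Median log2 difference (prp22-1 minus prp17-1) of the tested probes of each gene list at 23C and at each time at 37C, with the number tested in brackets. Respiration is below 0 and cell separation above 0 in every column, and the proteasome list goes from 0.20 at 5 min to -0.65 at 60 min.

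Among the remaining genes with large differences, FDC1 was the most regular. It encodes a ferulic acid decarboxylase and read -0.17, 0.29, 0.56, 0.32 and 0.33 in prp22-1 and -1.64, -1.42, -1.23, -1.24 and -1.52 in prp17-1. The difference was 1.68 ± 0.12 (SE, limma adjusted p = 0.0006) and 1.25 at 23C. RAD23, a DNA repair and proteasome shuttle gene, differed by -1.01 at 37C and -1.18 at 23C, with prp22-1 between -0.90 and -0.59 and prp17-1 between -0.12 and 0.66. ARO10, a decarboxylase gene of the fusel alcohol pathway, differed by 1.52 ± 0.31 (SE, limma adjusted p = 0.0363), with a difference of 2.89 at 15 min and 0.65 at 60 min. HPF1, a cell wall mannoprotein gene, differed by 1.42, HAB1 by 1.29 and YJR154W by 1.31, the last with 0.16 at 23C. PCA1, a cadmium exporter gene, differed by 1.26, with prp22-1 at 0.46, 0.42 and 0.86 at 5, 15 and 30 min and 2.34 and 2.52 at 60 and 120 min, while prp17-1 stayed between -0.13 and 0.24. ASP3-2, a cell wall asparaginase gene with near-identical copies, differed by -1.30 and ECL1 by -0.98. The prp17 null mean of ASP3-2 (-4.11, n = 2) lay in the range of prp22-1, and that of RAD23 (0.14) in the range of prp17-1. Sulfur genes divided, with the methionine permease gene MUP1 (-0.91) and CYS3 of cysteine synthesis (-0.79) lower and the sulfate permease gene SUL1 (0.84) higher. The prp17 null mean of MUP1 (-0.85) lay in the range of prp22-1, and that of CYS3 (0.65) in the range of prp17-1. In sterol synthesis, the squalene epoxidase gene ERG1 (0.88) and CYB5 (0.75) were higher and ERG5 (-0.50) lower. RPN8, a proteasome lid gene, differed by -0.63. Across all tested probes the ranges of the strains did not overlap for 443, or 7.91%. In 7 named genes, RPL3, RPL4A, RPL4B, FDC1, LSM7, URA3 and GDH1, the call held in every alternative fit run at the 0.05 threshold.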

How the data were processed

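The authors deposited log2 ratios of RNA (Cy5) over genomic DNA (Cy3) for 6350 probes, per the labels; the base of the logarithm was taken as 2, and how the authors corrected, normalized or filtered them was not stated in the material used. The number of arrays limits the precision, and the values hold no signal over background. Probe names came from GEO's platform annotation, updated through gene IDs to RefSeq symbols, with 5527 probes of 1 gene and 823 unnamed. Each array was centred on its median. A probe was tested when both strains had a value at 4 or more of the 5 times at 37C. The tests were limma 3.58.1 (R 4.3.3) moderated tests with time as a block, on the 10 arrays only, or on 12 arrays for the change from 23C. A lone array of an incomplete pair adds nothing to the difference, and no value was imputed. The pairing comes from the labelled times; deviations of same-time arrays from their strain's mean correlated between 0.09 and 0.58 over 4108 probes. Calls have a Benjamini-Hochberg adjusted p under 0.05 over all tested probes.

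The named genes were the 12 largest called differences each way with the same sign at every time, 3 called members of each list, the 4 smallest p-values in comparisons with no call, and CDC40, PRP22, marker, mating and FIT genes. Members and lists were chosen with earlier results of these data known. A few called genes are not reported here. The fit was tested on simulated data. Alternatives were other centring, quantile normalization, other filters, thresholds and variance settings, adding the prp17 null arrays, no block, and subsets of times. Figures used Python 3.11.15 and matplotlib 3.10.9.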

Additional observations from a re-analysis of the deposited data

Results flagged for a closer look

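Within the 5 paired differences of a gene or list, 1 time stood far from the rest in 7 of 104 sets examined, and chance alone marks about 1 in 20 sets. At 15 min the difference was high for RPS9A (2.16), PFK2 (1.66) and STE2 (1.83), and for STE2 it was the prp17-1 array that was low, at 0.40. RPL4B was lowest at 30 min (1.40). At 5 min ERD2 had its smallest difference (-0.53), SEC27 its largest (-1.46), and the median of the ribosomal protein genes without an intron was -0.26 while it was above 0 at all later times.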

How the results depend on the processing

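The 235 calls between the strains became 26 at an adjusted p under 0.01, 139 with no replicate block (time left out of the fit) and 13 with only 5, 15 and 30 min. Leaving out 1 pair gave 45 to 231. Other centring, quantile normalization, filters, variance settings, the prp17 null arrays and the 3 latest times gave 219 to 344. A similar count was not always the same probes. Of the 235 calls, 145 were kept with the 3 latest times, 174 with the prp17 null arrays and 173 without 15 min. Quantile normalization called 75 probes for the change from 23C and 24 for late against early, where all other settings run called 0; the cause was not tested. No result reversed. Of 58 named calls, 38 missed the threshold without 30 min, 37 without 120 min, 31 without 60 min, 22 without 5 min, 10 without 15 min and 27 without the block.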

Other observations

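The following genes were chosen after their values were seen. Among the 10 protein-coding genes nearest each chromosome end in RefSeq, 260 probes of 257 genes were tested, of which 23 were higher and 1, LYS1, lower in prp22-1 (9.23% against 4.2% of all tested probes), with a median difference of 0.26. The median was 0.16 at 23C, 0.06 at 15 min and 0.48 at 60 min. FDC1 and its neighbour IRC4 (0.84), YJR154W, PCA1, COS8 (0.85) and YRF1-5 (1.15) were among them, and YRF1-5 belongs to a family of near-identical copies. With 1 time left out, the count of higher probes ranged from 4 without 120 min to 36 without 15 min.

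The next genes were singled out one by one and stand for no group. SLT2, the kinase of the cell wall integrity pathway, read between 0.87 and 2.71 in prp22-1 and between 0.35 and 1.26 in prp17-1 (difference 0.77, limma adjusted p = 0.0429, and 0.06 at 23C), and the prp17 null mean was 2.05. YPK2, a protein kinase gene (1.07), the SLT2-related gene KDX1 (0.85) and the surface protease genes YPS1 (1.07) and YPS3 (0.84) were also called. At 23C YPK2 differed by -0.08, and KDX1, YPS1 and YPS3 by 0.40, 0.36 and 0.30. In the list of cell wall integrity and mannoprotein genes, SLT2 and KDX1 were the 2 called of 48 tested probes, 4.17%, no more than the 4.2% of all tested probes, and neither was called without 30, 60 or 120 min. Glycerol synthesis genes GPD2 (0.94) and GPP1 (1.06) were higher too.

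After the last named probe lie 237 probes with no gene name, of which 188 were tested. Of these 22 were higher and 7 lower in prp22-1, 15.4% against 4.2% of all tested probes. With 1 time left out, the higher calls numbered 9, 19, 15, 8 and 3 without 5, 15, 30, 60 and 120 min, and the lower calls between 0 and 3. Over all 188 the median difference at 37C was 0.01, with 95 above and 93 below 0. Their median change from 23C was 0.11 in prp22-1 and -0.04 in prp17-1. The 22 were picked by being higher in prp22-1 at 37C, which enters their values. They had a median difference of 0.96 at 37C and -0.02 at 23C, and a median change from 23C of 0.81 in prp22-1 and -0.18 in prp17-1. What these probes measure is not known here.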
